A study of Mus musculus with 4 samples.

Results

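Hand2 and Hand1 encode the HAND transcription factors, a pair of closely related basic helix-loop-helix (bHLH) proteins, and were followed here through RNA sequencing of mouse embryonic forelimbs with and without Sonic hedgehog. The pair was chosen by gene symbol: both rows were found among the 17712 genes of the deposited table, and both passed the filter on low values that left 13224 genes for testing. The Shh null group held 2 libraries and the wild-type group held 2 libraries, from littermate embryos of the Swiss Webster stock with 33 to 35 somites. The age label gives embryonic stage E10.25 and the source label E10.5. The labels do not describe the Shh allele, do not say how many embryos were pooled, and call the replicates technical, so p-values speak of the spread between libraries, which may be technical.

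HAND proteins bind DNA as dimers with the widely expressed E proteins, at short sites called E-boxes, and compete for partners with TWIST proteins and with ID proteins, which lack a DNA-binding region. In the early limb bud HAND2 marks the posterior mesenchyme, where it acts upstream of Shh and opposes the GLI3 repressor, and Shh signalling in turn is known to maintain Hand2. HAND1 is best known from the heart, the extraembryonic tissues and the ventral body wall.

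Hand2 (ENSMUSG00000038193.4) lies on chromosome 8, 57320983 to 57324633 on the plus strand, and Hand1 (ENSMUSG00000037335.13) on chromosome 11, 57828705 to 57832818 on the minus strand (mm10, GENCODE M21). Their coding sequences have 651 and 648 bases and are most alike in a stretch of 120 bases, of which 109 (90.8%) are identical. The stretch is shown because the question of shared reads turns on it. Capitals mark the 11 bases at which the genes differ, of which 10 fall on the third base of a codon, 1 on the first and 0 on the second. It lies at chr8:57322244-57322363 (plus strand) in Hand2 and at chr11:57831345-57831464 (minus strand) in Hand1, from GENCODE transcripts of GRCm38.
Hand2: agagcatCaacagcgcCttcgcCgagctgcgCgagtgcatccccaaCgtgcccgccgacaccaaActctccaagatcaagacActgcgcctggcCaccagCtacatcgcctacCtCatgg
Hand1: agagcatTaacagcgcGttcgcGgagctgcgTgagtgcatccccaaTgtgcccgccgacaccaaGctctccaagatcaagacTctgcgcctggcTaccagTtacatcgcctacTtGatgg
A single transcript per gene was compared, of 2351 bases for Hand2 and 1806 bases for Hand1, in the same orientation. The longest run of bases that these transcripts shared without a difference was 17 bases. Exon sequence of Hand1 outside its transcript was not compared. The read length is not given in the sources used here.

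The 250 bases before the start of Hand2 (chr8:57320733-57320982, plus strand, RefSeq, GRCm38.p6) are shown with E-boxes in capitals. An E-box is CANNTG, which reads the same on either strand, and is the class of site that HAND dimers bind.
Hand2 promoter: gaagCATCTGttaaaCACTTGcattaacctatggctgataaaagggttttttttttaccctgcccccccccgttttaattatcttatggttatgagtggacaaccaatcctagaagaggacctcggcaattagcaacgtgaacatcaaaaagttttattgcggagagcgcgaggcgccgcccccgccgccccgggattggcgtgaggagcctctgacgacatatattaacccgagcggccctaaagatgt
This window held 2 E-boxes, starting 246 and 235 bases before the gene, and 66.2% of 32817 RefSeq promoter windows of the same length held at least 1 and 31.8% at least 2. The first is CATCTG, which was found on either strand in 14.5% of windows. No match to the GLI motif TGGGTGGTC (GACCACCCA when it lies on the other strand) was found, which 0.226% of the windows hold. Limb expression of Hand2 is known to depend on distant enhancers, which this window does not include. Hand2os1, a long non-coding RNA gene on the minus strand (57281117 to 57324233), overlaps Hand2. It has no values under that name in the data, so it could not be analysed here. Reads from Hand2os1 could be counted under Hand2, since no source used here states whether strand was used in counting.

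The libraries held 23206944 and 21489093 reads (Shh null) and 29620468 and 18456502 reads (wild type) assigned to genes. Values are CPM, reads relative to a library size scaled by the TMM method, and 1 read is worth between 0.0351 and 0.0551 CPM. Within a group the libraries were not identical beyond counting error: comparing their reads gave a chi-square per degree of freedom of 14.8 in Shh null and 22.4 in wild type. Shh itself was at 3.15 and 2.42 CPM in Shh null, against 11.4 and 7.88 CPM in wild type, which goes with the labels. Of 10 limb mesenchyme markers all were tested, and they summed to 1699 and 1652 CPM in Shh null and 1187 and 1224 CPM in wild type, whereas the hindlimb genes Tbx4, Pitx1 and Hoxc10 summed to no more than 5.05 CPM in any library. The groups also differed in sex-linked RNA: Xist was at 522.3 and 467.5 CPM in Shh null, against 225.1 and 151.5 CPM in wild type, and the Y-linked gene Ddx3y at 39.1 and 42.3 CPM, against 119.4 and 106.1 CPM. The part of this difference in the results for Hand2 and Hand1, both on autosomes, was not tested.

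The HAND genes moved in opposite directions. Hand2, the posterior determinant, fell in Shh null forelimbs, and Hand1, at low level in wild type, rose. Hand2 was measured at 14.1 CPM (339 reads) and 10.20 CPM (223 reads) in the Shh null libraries, against 55.7 CPM (1586 reads) and 52.6 CPM (955 reads) in the wild-type libraries. The groups did not overlap: the higher Shh null library was 3.74-fold below the lower wild-type library, and the wild-type libraries lay closer together than the Shh null libraries. For any gene, lack of overlap alone is weak evidence here. With 2 against 2 libraries the smallest two-sided exact permutation p is 0.333. Means were 12.1 ± 2.73 CPM in Shh null and 54.1 ± 2.15 CPM in wild type (SD, n = 2 each), a 4.46-fold difference. Fitted as log2(CPM + 1), a scale that compresses changes of low genes, the log2 fold change was −2.09 ± 0.15 (SE; limma, adjusted p = 0.000132). It was 13th by size among the genes called lower. In bulk tissue, fewer cells that express a gene and less RNA per cell cannot be told apart.

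Hand1 was measured at 2.49 CPM (60 reads) and 1.83 CPM (40 reads) in the Shh null libraries, against 0.211 CPM (6 reads) and 0.551 CPM (10 reads) in the wild-type libraries. Both Shh null libraries lay above both wild-type libraries, and their exact 95% counting intervals of 1.90 to 3.20 and 1.31 to 2.49 CPM lay above those of 0.0773 to 0.458 and 0.264 to 1.01 CPM in wild type. Such intervals cover counting error only. Means were 2.16 ± 0.466 CPM in Shh null and 0.381 ± 0.241 CPM in wild type (SD, n = 2 each), a 5.67-fold difference, which was 3.92-fold without wild type 1 and 10.254-fold without wild type 2. Over pooled reads, 100 in Shh null and 16 in wild type, the ratio was 6.34 (95% counting interval 3.72 to 11.5). The log2 fold change was 1.20 ± 0.22 (SE; limma, adjusted p = 0.0218), the 16th by size among the genes called higher. The call ended without Shh null 1 (adjusted p = 0.254), without Shh null 2 (0.0858) and with quantile normalization (0.0575), within a range of 0.00031 to 0.254 over the alternatives. Without 1 library its group has a single library left, which is assumed to vary like the other group. Calls over all genes also became fewer without either Shh null library, at 56 and 99.

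**Figure D1:**
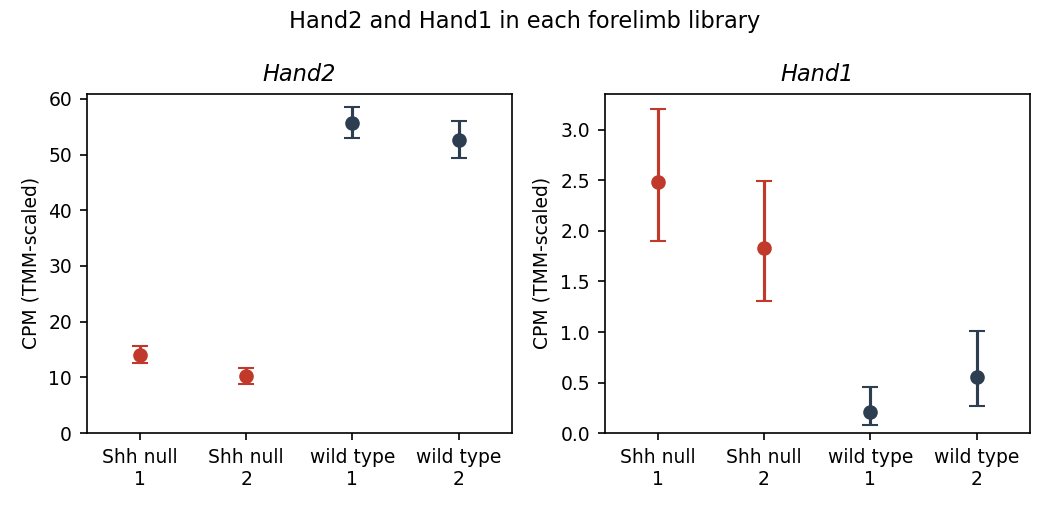
Level of Hand2 (left) and Hand1 (right) in each library, in CPM on linear axes that start at 0; bars are exact 95% counting intervals. Hand2 sits at 10.20 to 14.1 CPM in Shh null and at 52.6 to 55.7 CPM in wild type, and Hand1 at 1.83 to 2.49 CPM in Shh null and at 0.211 to 0.551 CPM in wild type.

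These calls stand against a background in which 2.48% of the 13224 tested genes were called, 1.24% (164 genes) higher and 1.24% (164 genes) lower. At an unadjusted p under 0.05, limma found 2449 of the 13224 in either direction. The counts below at that threshold are to be read against this number. The like number for fits without 1 library is not given here. Hand1 passed the filter of 1 CPM in 2 libraries only through the Shh null libraries, where it is high. With no filter it was still called (adjusted p = 0.0325), and it did not enter the fit under a filter of 5 CPM. The count test of edgeR on the recovered reads gave log2 fold changes of −2.16 for Hand2 (adjusted p = 0.000125) and 2.61 for Hand1 (adjusted p = 0.019), where 2.47% of genes were called by edgeR and 3.98% by DESeq2, which also called both. In the authors' deposited table, made from the same libraries, Hand2 had a log2 fold change of −2.16 with a false discovery rate of 4.67e-30, and Hand1 of 2.60 with a rate of 5.2e-06. By p-value these were the 12th and the 102nd of 17712 names in the authors' deposited table, in which 4.01% of names had a rate under 0.05.

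**Figure D2:**
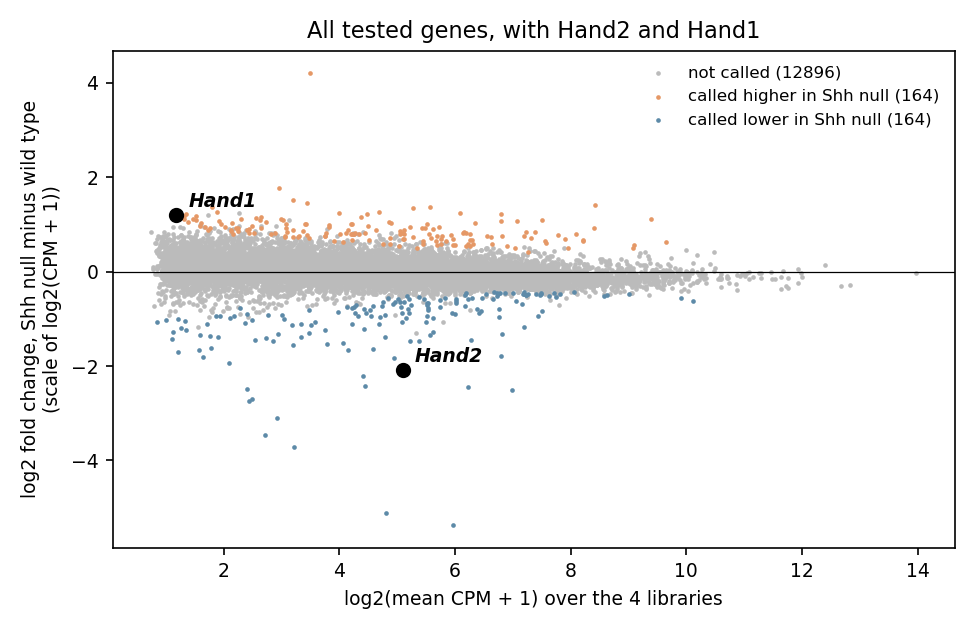
Log2 fold change (Shh null minus wild type, scale of log2(CPM + 1)) against log2(mean CPM + 1) for the 13224 tested genes, 1 point a gene. Hand1 lies at 1.20 near the low end of the levels and Hand2 at −2.09 in mid-range; 164 genes were called in each direction.

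Per length of exon (2351 bases for Hand2 and 1997 bases for Hand1) the levels of the genes can be compared with each other. Hand2 was at 5.98 and 4.34 CPM per kb in Shh null and at 23.7 and 22.4 CPM per kb in wild type, and Hand1 was at 1.25 and 0.916 CPM per kb in Shh null and at 0.105 and 0.276 CPM per kb in wild type. Hand2 thus remained the more abundant of the pair in every library. The ratio of Hand2 to Hand1 per kb was 4.80 and 4.73 in Shh null, against 224.5 and 81.1 in wild type. Hand1 made up 17.2% and 17.4% of the summed HAND level in Shh null, against 0.443% and 1.22% in wild type. The mean log2 ratio differed by −4.82 between the groups, without overlap (exact permutation test, two-sided, p = 0.333, the smallest that 2 against 2 libraries allow).

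Among 18 bHLH genes compared per length, the E protein genes, Twist-like genes and other tissue-restricted genes, Hand2 stood in place 4 in wild type at 23.0 CPM per kb, and in place 7 in Shh null at 5.16 CPM per kb. Hand1 stood in place 13 in wild type at 0.191 CPM per kb and in place 12 in Shh null at 1.08 CPM per kb. Twist1, which encodes a mesenchymal bHLH factor that shares partners with HAND2, was the most abundant in both groups, at 179.8 CPM per kb in Shh null and 111.2 CPM per kb in wild type. In wild type the neighbours of Hand2 in this order were Tcf12 at 33.8 CPM per kb and Tcf4 at 14.1 CPM per kb, both beyond the spread of Hand2 over libraries. In Shh null its neighbour Scx, at 5.57 CPM per kb, lay within that spread. In wild type both neighbours of Hand1, Msgn1 at 0.266 CPM per kb and Tcf21 at 0.156 CPM per kb, lay within the spread of Hand1 over libraries, so its place there is not resolved from theirs.

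**Figure D3:**
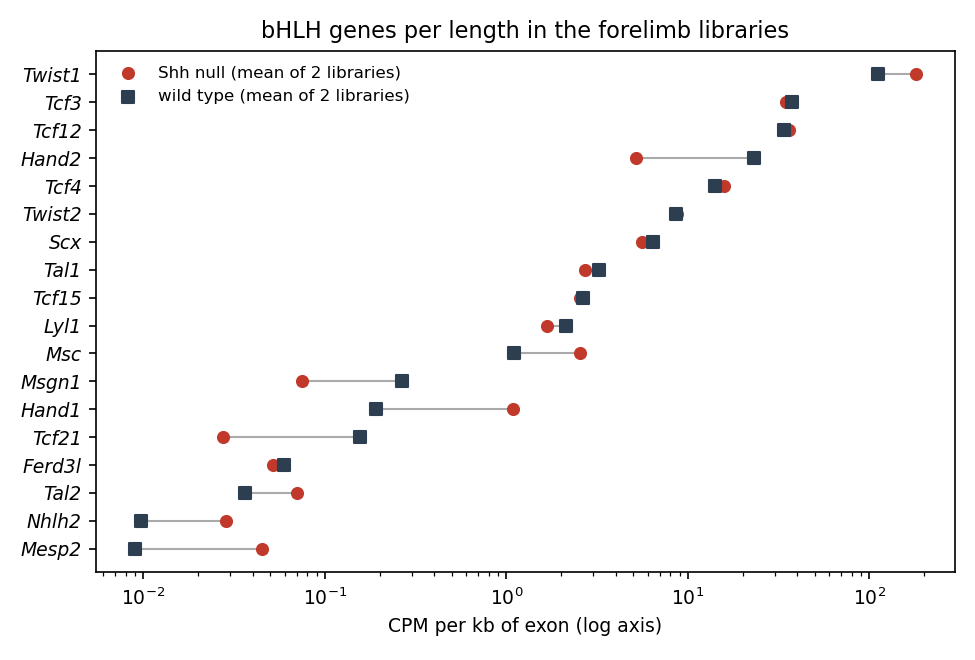
Mean level per kb of exon in Shh null (circles) and wild type (squares) for 18 bHLH genes, on a log axis, ordered by the wild-type level; lines join the groups. Hand2 lies to the left in Shh null (5.16 against 23.0 CPM per kb) and Hand1 to the right (1.08 against 0.191); genes below Hand1 rest on few reads.

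The E protein genes, whose products pair with HAND2 and HAND1, were not called by limma (adjusted p = 0.723 for Tcf3, 0.381 for Tcf4 and 0.716 for Tcf12). Tcf3 was at 155.0 and 125.9 CPM in Shh null and 166.9 and 134.9 CPM in wild type, Tcf4 at 449.1 and 420.6 against 384.2 and 388.2 CPM, and Tcf12 at 525.6 and 588.1 against 535.0 and 515.3 CPM. The HLH inhibitor genes Id1, Id2 and Id3, whose products bind E proteins, rose, with log2 fold changes of 0.70, 0.80 and 0.56 (limma, adjusted p = 0.0141, 0.0054 and 0.0398). Of the 7 tested genes of this list 3 were thus called higher, 0 lower and 4 not, with a median log2 fold change of 0.42 against −0.00048 over all tested genes. By edgeR and DESeq2, and at an unadjusted p under 0.05 in limma, 0 were lower as well. With no filter Id3 lost its call (0.0926), without Shh null 1 only Id2 was called, and without Shh null 2 the list had 0 calls, with 3 genes higher at an unadjusted p under 0.05.

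Of 7 tested Twist-like and related tissue bHLH genes, 2 were called higher and 5 not, with a median log2 fold change of −0.04. Twist1 was at 276.4 and 309.0 CPM in Shh null, against 180.8 and 181.4 CPM in wild type, without overlap (log2 fold change 0.69, adjusted p = 0.00723). Msc, which encodes a repressor bHLH factor of muscle precursors, was at 7.88 and 5.12 CPM in Shh null, against 2.88 and 2.70 CPM in wild type (0.96, adjusted p = 0.0449). Leaving out Shh null 1 ended both calls (adjusted p = 0.0538 for Twist1 and 0.354 for Msc), as did leaving out Shh null 2 (0.0749 and 0.0611). The call of Msc also ended with no filter (0.1102), with a filter of 5 CPM (0.0513) and with quantile normalization (0.0884). Limma, edgeR and DESeq2 called 0 of the 7 lower, and 0 were lower at an unadjusted p under 0.05. Tal1, a blood and vessel bHLH gene, was at 10.49 and 13.4 CPM in Shh null, against 20.9 and 7.49 CPM in wild type, and was not called (adjusted p = 0.925). Without wild type 2, which lies below both Shh null libraries, it was called lower (−0.77, adjusted p = 0.0122) against wild type 1 alone, with a spread that comes from the Shh null libraries only. The 6 further genes of the list with values were below the filter, and Hand2 fell further than any tested gene of the list by fitted log2 fold change.

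Hand2 fell beside most of the posterior genes with which it is known to act. Of 15 such genes, 12 were called lower, 0 higher and 3 not, with a median log2 fold change of −2.21. Without Shh null 1, 9 were called lower, as Shh (adjusted p = 0.0693), Hhip (0.0518) and Hoxd10 (0.0733) lost their calls, and without Shh null 2, 11 were, as Shh did (0.0767). The list was drawn up from genes known to depend on Shh or HAND2, with earlier results of these data known, so its direction is no independent evidence. The fall of Hand2 was smaller than that of the digit gene Hoxd13 (log2 fold change −5.37) and the pathway readout Gli1 (−3.72), and larger than that of Hoxd10 (−0.89). Tbx3 and Tbx2, T-box genes reported as HAND2 targets in the limb, were the exceptions in direction. Tbx3 was at 46.6 and 44.3 CPM in Shh null, against 28.6 and 36.2 CPM in wild type, and Tbx2 at 30.6 and 26.7 against 21.1 and 19.1 CPM. Neither was called (limma, adjusted p = 0.0935 and 0.089), though both were higher at an unadjusted p under 0.05, and Tbx3 was called higher without wild type 2 (0.00633). By edgeR and DESeq2, too, 0 genes of this list were called higher.

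Genes of the anterior and proximal limb bud, which HAND2 opposes, went with Hand1 in direction. Of 12 such genes 6 were called higher, 0 lower and 6 not, with a median log2 fold change of 0.89. This list, too, was drawn up with earlier results known. Limma, edgeR and DESeq2 called 0 lower, and 0 were lower at an unadjusted p under 0.05. Gli3, the mutual antagonist of Hand2, was at 161.4 and 165.4 CPM in Shh null and 140.4 and 138.7 CPM in wild type and was not called (adjusted p = 0.229). Over the alternatives, the log2 fold changes of the 6 called genes lay between 0.95 (Irx5) and 2.21 (Pax9). The Irx5 and Pax9 calls ended without Shh null 1, and the Pax9 call also ended without Shh null 2. Without wild type 2 more genes were called higher in this list, as over all tested genes.

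Among 12 tested genes reported upstream of Hand2 in the limb bud, 1 was called higher and 1 lower. The lists share genes and are not separate sets. Of these genes, Tbx3 is also in the posterior list and Gli3 in the anterior and proximal list. Tbx5 and Hoxd9 are also limb mesenchyme markers, and Gata6 a flank marker. Twist1 is in both the Twist-like and the limb mesenchyme lists, so its call is counted in each. Hoxb9, a HOX gene of the set that positions the posterior limb bud, was at 3.98 and 3.98 CPM in Shh null, against 0.737 and 1.16 CPM in wild type (log2 fold change 1.36, adjusted p = 0.00713). Sall4, a zinc finger gene, was at 5.60 and 7.82 CPM in Shh null, against 14.6 and 15.6 CPM in wild type (−1.08, adjusted p = 0.0141). The LIM homeobox gene Isl1, known to act early in Hand2 activation, was at 4.52 and 2.84 CPM in Shh null, against 1.61 and 1.27 CPM in wild type, and was not called (adjusted p = 0.0652). Without Shh null 1 the list had 0 calls in either direction, with 4 genes higher and 1 lower at an unadjusted p under 0.05. The Hoxb9 call also ended without Shh null 2, and the Sall4 call with no filter (limma, adjusted p = 0.0502). Without wild type 2 more genes were called higher in this list, as over all tested genes.

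The neighbours of Hand2 and Hand1 on their chromosomes are themselves related: Sap30 and Galnt7 stand near Hand2, and Sap30l and Galnt10 near Hand1. Among the nearest 3 genes with values on each side of Hand2, Fbxo8, 727.0 kb away, was called lower, at 24.3 and 27.7 CPM in Shh null against 47.0 and 36.4 CPM in wild type (log2 fold change −0.65, limma, adjusted p = 0.0494). Its call ended in 5 of 12 alternatives, among them without Shh null 1 (0.372), Shh null 2 (0.118) or wild type 1 (0.133). The other 5 were not called, and Sap30, a corepressor subunit gene 158.1 kb away, was the next lower at −0.35 (adjusted p = 0.137). At an unadjusted p under 0.05 in limma, 3 of the 6 neighbours of Hand2 were lower and 1 higher. Of the 6 neighbours of Hand1, 0 were called by limma, edgeR or DESeq2, and at an unadjusted p under 0.05 in limma 1 was lower. Sap30l, only 18.5 kb from Hand1, was at 23.7 and 22.7 CPM in Shh null, against 19.3 and 20.5 CPM in wild type, a log2 fold change of 0.21 (adjusted p = 0.398).

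**Figure D4:**
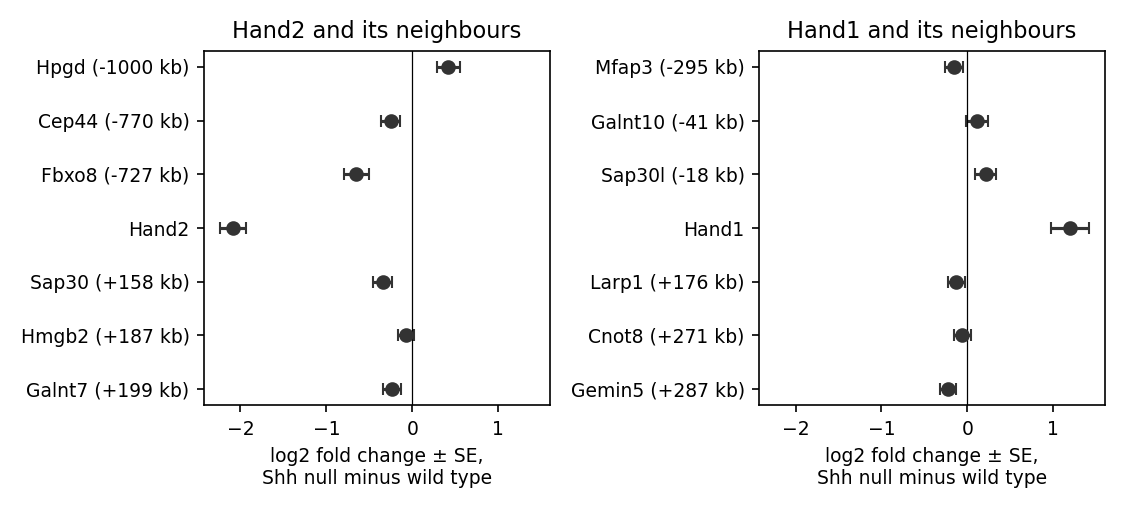
Log2 fold change ± SE (Shh null minus wild type) of Hand2 (left) and Hand1 (right) and of the 3 nearest genes with values on each side, ordered by position with the distance in kb. Hand2 lies at −2.09 and its neighbours between −0.65 and 0.42; Hand1 lies at 1.20 and its neighbours between −0.23 and 0.21.

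The genes most like each member were found by the Euclidean distance between log2(CPM + 1) profiles, centred on the gene mean, over the 4 libraries. This is a description with no test, and with 4 libraries it chiefly picks genes with a like difference between the groups on the log2(CPM + 1) scale. Among 10190 genes with a mean of at least 5 CPM, the nearest to Hand2 were Sall1 (distance 0.315), Frem1 (0.409), Hoxd11 (0.46), Ptch1 (0.501), Grem1 (0.515), Sall3 (0.56), Cbln1 (0.618) and Cdk6 (0.645). Sall1, a zinc finger gene, was at 13.4 and 11.6 CPM in Shh null, against 49.8 and 44.0 CPM in wild type. Like Hand2, Sall1 and Frem1, which encodes an extracellular matrix protein, were lower in Shh null 2 than in Shh null 1. So were Hoxd11, Sall3, Cbln1 and Cdk6, whereas Ptch1 and Grem1 were higher there.

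The nearest to Hand1 were Col1a2 (distance 0.129), Runx2 (0.141), Col6a3 (0.158), Mme (0.177), Alx4 (0.2), Irx3 (0.222), Rspo4 (0.224) and Gria2 (0.23). On the CPM scale their means differed 2.09- to 2.63-fold between the groups, less than the 5.67-fold of Hand1, whose difference the added 1 CPM compresses. All 8 were lowest in wild type 1 and highest in Shh null 1, as Hand1 was. Col1a2, a fibrillar collagen gene, was at 1055 and 788.4 CPM in Shh null, against 380.7 and 470.2 CPM in wild type. Runx2, which encodes a master regulator of bone formation, was at 10.4 and 9.24 CPM in Shh null, against 3.51 and 4.57 CPM in wild type.

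**Figure D5:**
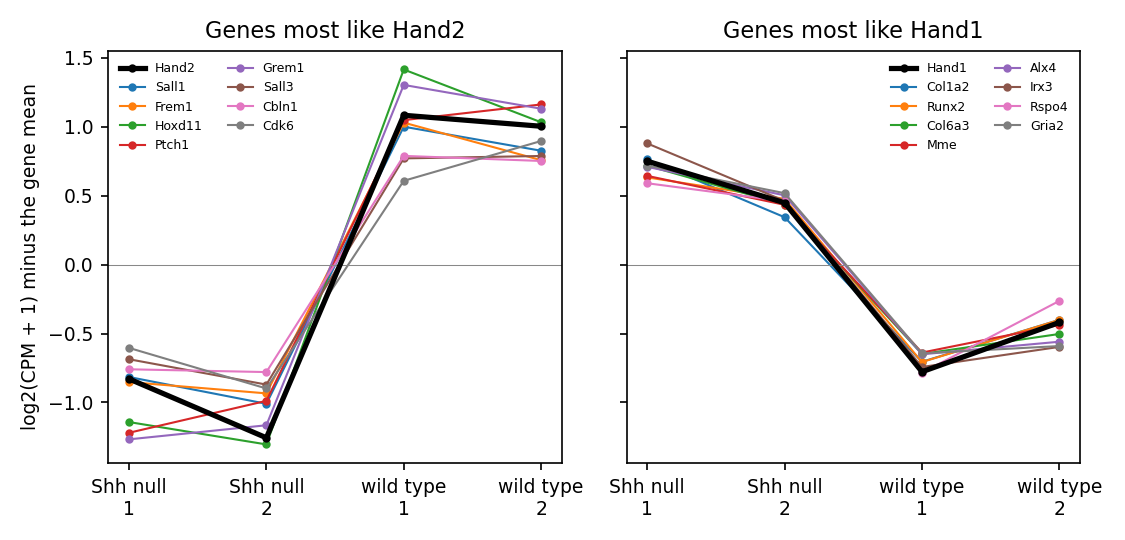
Profiles of log2(CPM + 1) minus the gene mean over the 4 libraries for Hand2 and its 8 nearest genes (left) and Hand1 and its 8 nearest genes (right); the member is the thick black line. The left set is low in Shh null and high in wild type, and the right set is the reverse.

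Because HAND genes are also active outside the limb mesenchyme, markers of tissues that express them were summed in each library. These markers need not be confined to such tissues: Gata6, a flank marker here, is also among the limb bud genes reported upstream of Hand2. How much of each sum came from limb cells was not tested. The 8 cardiac muscle markers with values summed to 3.77 and 2.75 CPM in Shh null and to 2.35 and 7.11 CPM in wild type, so the groups overlapped. The 8 lateral plate and ventral flank markers summed to 13.7 and 19.0 CPM in Shh null and to 18.6 and 27.4 CPM in wild type, and overlapped. Among these Foxf1 and Foxf2, at no more than 12 reads in any library, were at 0 CPM in Shh null 1 and at 0.229 and 0.0457 CPM in Shh null 2. They were at 0.105 and 0.211 CPM in wild type 1 and 0.661 and 0.165 CPM in wild type 2. Gata6 and Tbx20 had higher means in Shh null (3.81 and 0.796 CPM, against 3.41 and 0.438 CPM in wild type). Gata4, Wt1 and Bmp5 had lower means in Shh null, and the groups overlapped for each of these last genes and for Gata6 and Tbx20. Osr1 was called lower (log2 fold change −1.09, adjusted p = 0.0141), a call lost without Shh null 1 (0.172) or without Shh null 2 (0.0744). The extraembryonic markers, 6 of 8 with values, summed to 3.32 and 3.39 CPM in Shh null and to 3.33 and 3.91 CPM in wild type, and overlapped. The part of these 3 tissues in the results for Hand1 and Hand2 was not tested.

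Summed markers of 2 other tissues did not overlap between the groups. With 2 against 2 libraries this can arise by chance (smallest two-sided exact permutation p = 0.333). The 7 sympathetic neuron markers summed to 4.56 and 4.76 CPM in Shh null, against 3.23 and 3.47 CPM in wild type. Gata3 was at 1.33 and 2.06 CPM in Shh null, against 0.772 and 0.771 CPM in wild type, and was not called. Th, below the filter, was at 0.995 and 0.869 against 0.561 and 0.661 CPM. Phox2a was lower in Shh null, at 0.0829 and 0.0457 against 0.14 and 0.165 CPM, and Dbh was at no more than 0.083 CPM in any library. The 9 pharyngeal arch markers summed to 116.7 and 99.96 CPM in Shh null, against 82.7 and 89.1 CPM in wild type. Most of it came from Ednra (88.2 and 73.0 CPM in Shh null, against 63.5 and 69.2 CPM in wild type). Gsc was at 18.2 and 16.9 against 14.1 and 14.5 CPM, and Dlx5 at 2.28 and 2.97 against 1.23 and 0.936 CPM, neither called. Barx1 and Lhx8 were at no more than 0.276 CPM in any library. Of 5 tested arch genes 1, Dlx3, was called higher (adjusted p = 0.0241), a call that ended with no filter (0.066), with quantile normalization (0.0547), without Shh null 1 (0.223) and without Shh null 2 (0.114). Their part in the results for Hand1 and Hand2 was not tested either. Within wild type, the 10 Hand1 reads of library 2 and the 6 of library 1 had overlapping counting intervals. Of the 8 cardiac genes 7 were higher and 1 lower in library 2 than in library 1, and of the 8 flank genes 5 were higher and 3, Osr1, Bmp5 and Foxf2, lower. The limb mesenchyme markers, by contrast with Hand2, were mostly higher in Shh null: 5 of 10 were called higher and 1, Fgf10, lower, and limma left 0 of these 6 calls without Shh null 1 or without Shh null 2. In the fit of all 4 libraries, 6 of the 10 were higher and 2 lower at an unadjusted p under 0.05. Over all 13224 tested genes, 2449 lay under that threshold in either direction.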

How the data were processed

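RNA was extracted with TRIzol from forelimbs and sequenced by Illumina methods, per the labels' protocols. Per the submitters' processing notes, the reads were processed for build mm10 with edgeR 3.4.2, HTSeq 0.5.4p5, SAMtools and TopHat2 2.0.9; their roles are not given there. The authors deposited a signal per gene and library, a count divided by 1 factor a library: 100% of values were whole multiples of the smallest (tolerance 0.001 reads), and TMM factors recomputed from these reads gave the same scale, so the signal is called CPM. The log2 fold changes, p-values and false discovery rates of the authors' own comparison were deposited in a second table and are quoted only as such.

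Genes with at least 1 CPM in at least 2 libraries were fitted as log2(CPM + 1) with limma 3.58.1 (R 4.3.3, genotype as the only term, intensity trend), with Benjamini-Hochberg adjustment over all tested genes and calls at an adjusted p under 0.05. The count tests of DESeq2 1.42.0 and edgeR 4.0.16 served as alternatives on the recovered reads. The steps were tested on simulated data. Neighbours are the nearest genes of GENCODE M21 that have values; likeness was ranked over genes with a mean of at least 5 CPM, leaving out predicted genes. Named genes were the members, Shh, these neighbours, the 8 genes most like each member and the genes of the lists that were called or changed most. Members and lists were chosen with earlier results of these data known. A further marker gene is not reported here.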

Additional observations from a re-analysis of the deposited data

How the results depend on the processing

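Hand2 kept its direction and its call in all 12 alternatives, with log2 fold changes between −2.30 and −1.87. Hand1 kept its direction in all 11 that could be fitted (between 1.02 and 2.61) and its call in 8; with quantile normalization the log2 fold change was 1.13 and not called, and leaving out 1 library gave values between 1.02 and 1.38. The filter of 5 CPM left Hand1 out. The number of genes called, 328, became 170 with no filter, 526 with DESeq2 and between 56 and 802 when 1 library was left out. With the replicate block 396 genes were called and neither member lost its call; same-numbered libraries deviated in opposite directions (r = −0.203 across genes), and no label says that a number pairs libraries. A crossed pairing, chosen after seeing the data, gave 1386 calls. Of the 48 other called genes named or listed, 23 kept their call under every alternative, 25 lost it under at least 1 and 0 reversed. At 6 and 10 reads in wild type, the depth limits how well the fold of Hand1 can be known. The cause of each lost call was not tested.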
